A study of Mus musculus with 24 samples.

Results

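The insulin-like growth factor (IGF) axis was examined through 10 genes chosen by name from the 55487 genes of the table: the ligand gene Igf1, the receptor genes Igf1r and Igf2r, and the binding protein genes Igfbp1 to Igfbp7. Expression was measured by BRB-seq, which barcodes each RNA sample and reads the 3′ end of its mRNAs, in AML-12, an established mouse hepatocyte line, in 6 groups of 4 libraries. BSA cells received albumin, the carrier of the fatty acid, and PAL cells received 0.25 mM palmitate. All other groups were given 0.25 mM palmitate plus, over the final 24 hours, an esiRNA (a pool of small interfering RNAs made with an endoribonuclease). CON received 200 nM of esiRNA to Egfp, a gene that mouse cells do not carry, BMAL1 received 100 nM to the clock gene Bmal1, CHREBP received 100 nM to the carbohydrate response factor gene Chrebp, and BOTH received esiRNA to each of the 2 genes at a total of 200 nM, so that the total dose of BMAL1 and CHREBP was not that of CON and BOTH. The medium of all groups lacked dexamethasone and held charcoal-treated serum, and every group was the same cell line. By the library names in the labels, column 1 held BSA and PAL, column 2 held the CON and BMAL1 libraries, and column 3 those of CHREBP and BOTH, so that column and Chrebp esiRNA, and column, row and transfection in CON against PAL, cannot be told apart. BSA, CON and CHREBP libraries occupied rows A to D, and those of PAL, BMAL1 and BOTH rows E to H, which aligns row with palmitate in the BSA and PAL pair and with Bmal1 esiRNA in the other pairs.

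IGF1 is a peptide hormone that the liver secretes under the control of growth hormone, and it acts through the tyrosine kinase IGF1R. IGF2R, the cation-independent mannose 6-phosphate receptor, takes up IGF2 for breakdown and carries lysosomal enzymes. IGFBP1 to IGFBP6 bind IGFs with high affinity and hold them in blood or matrix, whereas IGFBP7 binds them weakly. In liver, hepatocytes are known to make IGF1, IGFBP1, IGFBP2 and IGFBP4, and IGFBP3 is known mainly from the non-parenchymal cells.

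Of the 10 genes, 7 had counts in all 24 libraries. Igfbp1, the insulin-repressed binding protein of hepatocytes, had 0 counts in every library, which allows a level of up to 0.0161 CPM (counts scaled to a common library total) by a limit of 3 counts over all libraries. Igfbp2, a binding protein of fetal and adult liver, had 1 count in all, in BOTH replicate 1. Igfbp6, which prefers IGF2, had 37 counts spread over 17 libraries and at most 5 in any of them. For the other genes, the counts per library ran from 11 to 35 for Igf1, from 12 to 86 for Igfbp3 and from 7 to 174 for Igfbp5. They ran from 54 to 195 for Igf2r, from 719 to 1499 for Igf1r, from 5080 to 11062 for Igfbp4 and from 12913 to 26103 for Igfbp7. Igf1, Igfbp3 and Igfbp5 were thus measured from few reads. These values were not divided by transcript length, and no level was compared between genes.

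The 10 genes lie in GENCODE M21 on GRCm38 as protein-coding genes, and 2 pairs of them are neighbours with 0 annotated genes between them. Igfbp1 (chr11:7197782-7202546, plus strand) and Igfbp3 (chr11:7206086-7213923, minus strand) stand tail to tail with 3539 bp between them. Igfbp2 (chr1:72824503-72852474, plus strand) and Igfbp5 (chr1:72857932-72874884, minus strand) stand the same way, 5457 bp apart. In both pairs the plus-strand gene was at or near 0 counts while its minus-strand neighbour was detected in all libraries. Igfbp4 (chr11:99041244-99054392, plus strand), Igfbp6 (chr15:102144362-102149511, plus strand) and Igf1r (chr7:67952827-68233668, plus strand) overlap no other gene. Igf1 (chr10:87858265-87937042, plus strand) overlaps the antisense gene Igf1os, Igf2r (chr17:12682406-12769664, minus strand) overlaps Airn, and Igfbp7 (chr5:77349240-77408041, minus strand) overlaps Polr2b and Gm34648, all on the other strand. Whether the counting used strand is not given in the sources used here. Reads from bases that these 3 genes share with their partners may thus not have been told apart.

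Promoter windows were taken from RefSeq for GRCm38.p6, with 250 bases before each start site, and 11 windows matched the 10 genes because Igfbp2 has 2 starts. They are shown for the binding protein gene with the largest fall under palmitate (Igfbp5, chr1:72874866-72875115, minus strand), for the one that differed in the most comparisons (Igfbp4, chr11:99040994-99041243, plus strand) and for the one without a count (Igfbp1, chr11:7197537-7197786, plus strand). Each is written 5′ to 3′ in the direction of the gene. Capitals mark a TATA box, TATAAA, in Igfbp4 and an insulin response element, CAAAACA, in Igfbp1, and the last bases of the Igfbp5 and Igfbp1 windows lie in GENCODE's first exon.
Igfbp5: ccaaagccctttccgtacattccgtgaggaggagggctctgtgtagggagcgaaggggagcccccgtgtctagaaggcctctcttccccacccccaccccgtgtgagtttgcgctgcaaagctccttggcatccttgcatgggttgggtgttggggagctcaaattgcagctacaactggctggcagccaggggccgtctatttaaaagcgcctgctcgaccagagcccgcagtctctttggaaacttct
Igfbp4: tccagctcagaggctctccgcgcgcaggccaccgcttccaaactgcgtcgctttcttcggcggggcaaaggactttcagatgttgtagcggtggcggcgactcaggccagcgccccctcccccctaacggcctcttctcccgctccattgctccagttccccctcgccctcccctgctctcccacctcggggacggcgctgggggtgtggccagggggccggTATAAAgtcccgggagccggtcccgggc
Igfbp1: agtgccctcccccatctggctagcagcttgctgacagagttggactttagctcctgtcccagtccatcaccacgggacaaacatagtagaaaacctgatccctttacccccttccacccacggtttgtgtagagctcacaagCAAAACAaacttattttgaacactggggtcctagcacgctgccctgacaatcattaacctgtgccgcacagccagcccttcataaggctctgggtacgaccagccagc

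On both strands, 6 motifs were searched in these windows and in the 32851 windows of all genes. The TATA box (TATAAA, in 12.4% of all windows) was found in Igfbp4 from -28 to -23 of the start and, on the minus strand, in Igfbp6 from -148 to -143. The E-box CACGTG, the sequence that BMAL1 with CLOCK is known to bind (6.02% of all windows), was found in Igf2r from -48 to -43 and from -7 to -2, and in Igfbp2 from -142 to -137. The insulin response element CAAAACA (5.56%) was found in Igfbp1 alone among the 10 genes, from -108 to -102. The carbohydrate response element bound by ChREBP (0.0974%), the interferon-stimulated response element (2.98%) and the C/EBP box TTGCNNAA (9.56%) were in none of the 11 windows. The E-box is contained in a perfect carbohydrate response element, so these 2 motifs overlap. Igf1, Igf1r, Igfbp3, Igfbp5 and Igfbp7 held none of the 6 within these 250 bases. The Igf1 window (chr10:87860861-87861110) lies inside the gene as GENCODE places it. That of Igf1r (chr7:67952007-67952256) ends before GENCODE's start of the gene. The bases before these GENCODE starts were thus not searched as such. A match in a window is only a match of letters. Variant forms of the motifs were not searched, so a window without a match may hold one.

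Over all genes, the libraries held 5399700 to 11237474 counts and 14420 to 15644 detected genes. The targeted genes were at low counts, with Arntl, the gene of BMAL1, at 44.7 ± 11.6 normalized counts in CON (SD, n = 4), 26.0 ± 4.82 in BMAL1 and 22.8 ± 6.64 in BOTH. Mlxipl, the gene of ChREBP, was at 35.6 ± 7.26 in CON, 25.9 ± 4.75 in CHREBP and 17.0 ± 4.91 in BOTH. Both genes were called lower in BOTH against CON (DESeq2 adjusted p = 0.00994 and 0.00762). Arntl in BMAL1 had a log2 fold change of -0.78 (unadjusted p = 0.00496, no adjusted p) and Mlxipl in CHREBP one of -0.46, which did not pass (DESeq2 adjusted p = 0.593). Of 12 hepatocyte markers, 7 had a median over 10 CPM, among them Hnf4a at 143 to 189 CPM and Ttr at 141 to 260 CPM, but Alb was at only 11.8 to 35.7 CPM and Apoa1, Apoa2 and Ahsg had medians under 1 CPM. All 8 stellate cell and fibroblast markers and all 7 endothelial markers had medians under 1 CPM, with 4 of each at 0 in every library, including Col1a2, Pdgfrb, Kdr and Cdh5. Of 8 macrophage markers 3 were at 0, including Clec4f and Adgre1, whereas Cd14 was at 68.7 to 122 CPM. Of 6 cholangiocyte markers 4 had a median over 10 CPM, with Krt19 at 232 to 438 CPM and Spp1 at 1123 to 1765 CPM, and Epcam was at 0 to 0.370 CPM. The level of 20 interferon-induced genes, as a mean of log2(normalized count + 1), was lowest in PAL, at 2.87 to 3.15, and next in BSA, at 3.34 to 3.59. In the transfected groups it ran from 4.36 to 7.19 (CON), from 4.38 to 4.96 (BMAL1), from 8.93 to 10.05 (CHREBP) and from 9.81 to 10.71 (BOTH).

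**Figure D1:**
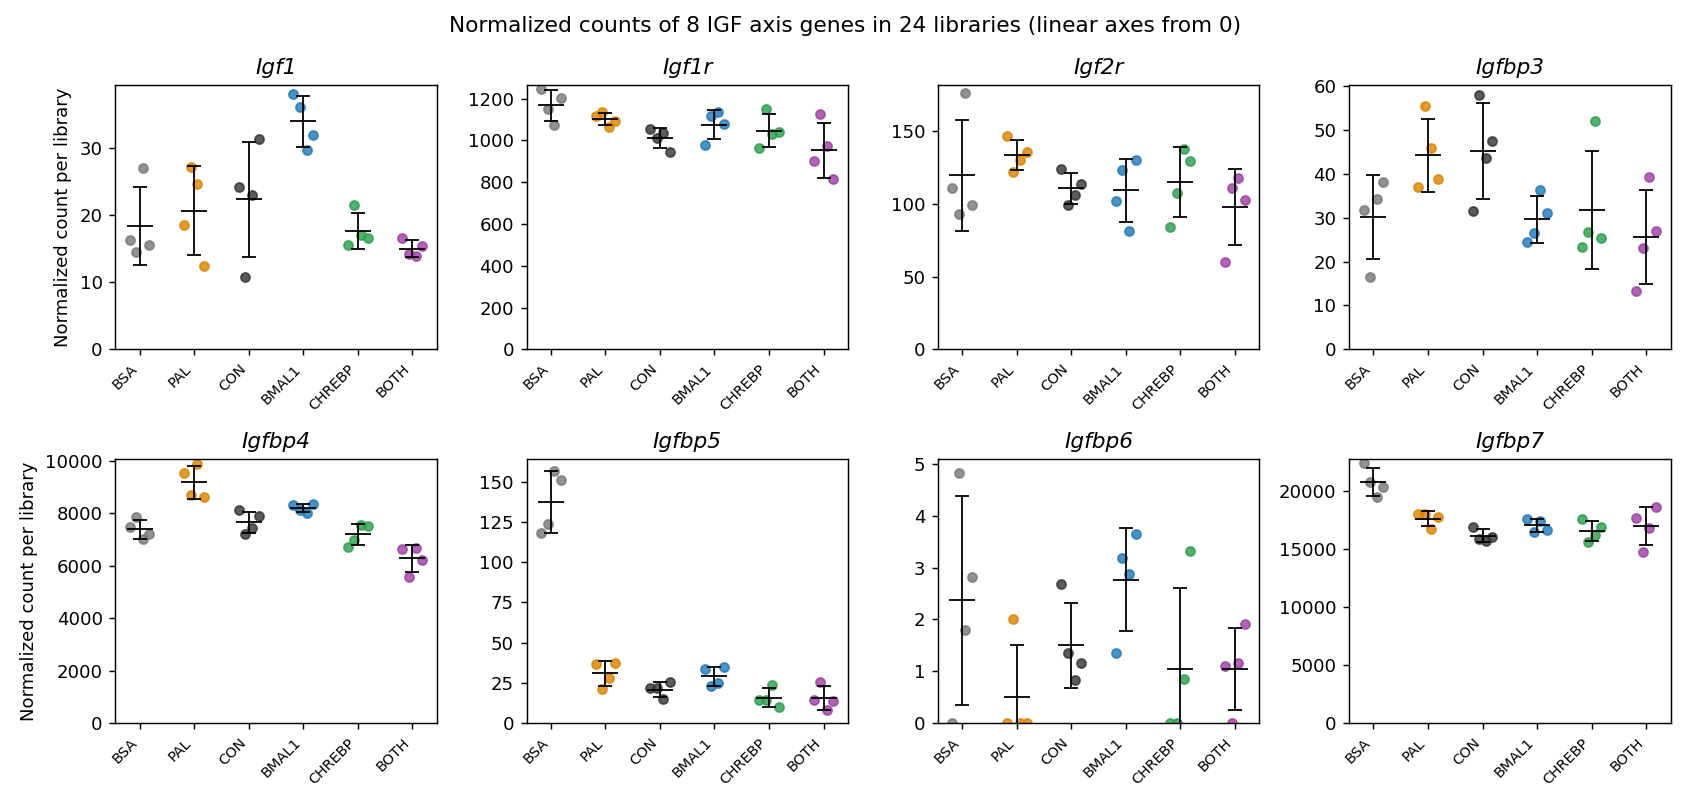
Normalized count of 8 IGF axis genes in each library, on linear axes that start at 0, with 1 point per library and the mean and SD of each group of 4 as bars. Igfbp5 stands between 118 and 157 in the BSA libraries and at or below 37.3 in all libraries with palmitate, and Igfbp4 is highest in PAL and lowest in BOTH.

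The first comparison asked how palmitate changed these genes. With palmitate alone, the binding protein genes moved in different directions: Igfbp5 and Igfbp7 fell, Igfbp4 rose, and neither the ligand nor the receptor genes passed the test. DESeq2 called 3 of the 7 members it tested at an adjusted p under 0.1, beside 14.3% of the 12827 genes tested. The median log2 fold change was 0.15 over the 7 members and 0.00 over all genes. In bulk RNA, fewer cells that express a gene and less of its RNA per cell cannot be told apart. The labels do not say that the 4 libraries of a group came from separate cultures, so the p-values here and below measure the spread between these libraries, which may be technical.

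Igfbp5 encodes a binding protein that is also held in the extracellular matrix. Its normalized counts were 118, 124, 157 and 151 in BSA and 37.0, 21.1, 28.0 and 37.3 in PAL. Every PAL library was below every BSA library by a wide margin, and the mean fell from 137.6 ± 19.4 to 30.8 ± 7.79 (SD, n = 4). The log2 fold change was -2.14 (SE 0.22, DESeq2 adjusted p = 1.04e-20), a fall of 77.4%, and the gene stood at rank 39 by p among all genes tested. BSA libraries held 107 to 174 reads of the gene and PAL libraries 21 to 48. In the 4 other groups, which all had palmitate, it was at 8.09 to 34.7, so that no palmitate library reached the lowest BSA value.

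Igfbp7, whose protein is secreted and binds IGFs weakly, was at 22356, 20738, 19463 and 20300 normalized counts in BSA and at 18010, 17976, 16654 and 17712 in PAL. The groups did not overlap, and the change was small, a fall of 14.7% (log2 fold change -0.23, SE 0.05, DESeq2 adjusted p = 0.000346). Igfbp4, a secreted inhibitor of IGF action, moved the other way. It was at 7465, 7855, 7002 and 7186 in BSA and at 9517, 8689, 9857 and 8599 in PAL, again without overlap. The log2 fold change was 0.32 (SE 0.06, DESeq2 adjusted p = 2e-06), or 24.8% higher.

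The remaining members were not called in PAL against BSA. Igfbp3, the main IGF carrier of serum, was at 31.7, 16.4, 34.3 and 38.2 in BSA and at 37.0, 55.3, 45.8 and 38.9 in PAL. Its lowest value was in BSA replicate 2 and the groups overlapped, with a log2 fold change of 0.57 (95% interval 0.01 to 1.14, DESeq2 adjusted p = 0.22). Igf1 was at 18.4 ± 5.85 in BSA and 20.7 ± 6.59 in PAL, a log2 difference of 0.16 with a wide interval from -0.61 to 0.92, from 11 to 30 reads per library. Igf1r was at 1168 ± 73.2 and 1102 ± 30.6, and its interval, -0.21 to 0.06, was narrow. Igf2r was at 119.5 ± 38.2 and 133.3 ± 10.4, where BSA replicate 3, at 176, was the highest library of all 24. Without that library its log2 difference was 0.40 in place of 0.15 (DESeq2 adjusted p = 0.131).

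Other measures moved with palmitate as well. The summed level of the 12 hepatocyte markers was 2298 to 2526 CPM in BSA and 1620 to 1817 CPM in PAL, and that of the 6 cholangiocyte markers was 2194 to 2368 and 1844 to 1996 CPM. The 8 macrophage markers summed to 114 to 124 CPM in BSA and 74.4 to 86.4 CPM in PAL, most of it Cd14. Their part in the changes of Igfbp4, Igfbp5 and Igfbp7 was not tested. CON libraries, which had palmitate but differ from BSA by transfection and column too, were in rows A to D like BSA, and in them Igfbp5 was at 14.8 to 25.5 and Igfbp7 at 15664 to 16902, both below all BSA libraries. Igfbp4 in CON, at 7215 to 8101, overlapped BSA. The part of row in the changes of these 3 genes was not tested. The 3 calls were made in each of the fits without 1 of the 8 libraries.

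The palmitate comparison extended to other genes of the pathway. Lists of 72 genes were made for other ligands and carriers, receptor signalling, the growth hormone axis, IGFBP proteases, IGF2 mRNA binding proteins and FOXO-induced genes, and 60 were tested. Of these, 5 rose and 11 fell, beside 14.3% called over all genes, with a median log2 fold change of -0.03. In the growth hormone axis 1 gene was higher and 4 were lower of 8 tested. Cish, a STAT5-induced inhibitor of cytokine receptors, fell from 529 ± 52.2 to 320 ± 18.7 normalized counts (log2 fold change -0.72, SE 0.10, DESeq2 adjusted p = 1.18e-11), and Socs3, another inhibitor of the same class, had a log2 fold change of -0.40 (SE 0.10, adjusted p = 0.000919). Among 30 signalling genes 2 rose and 2 fell, including Grb14, an adaptor that inhibits the insulin receptor (-0.48), and Mapk3, the gene of ERK1 (-0.37). Klf15, a transcription factor of glucose and amino acid metabolism, had a log2 fold change of -0.63. The ligand gene Igf2 and the IGFBP4 protease gene Pappa had 0 counts in all libraries. Insr, the insulin receptor gene, was at 360 ± 22.8 in BSA and 365 ± 45.3 in PAL and was not called.

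**Figure D2:**
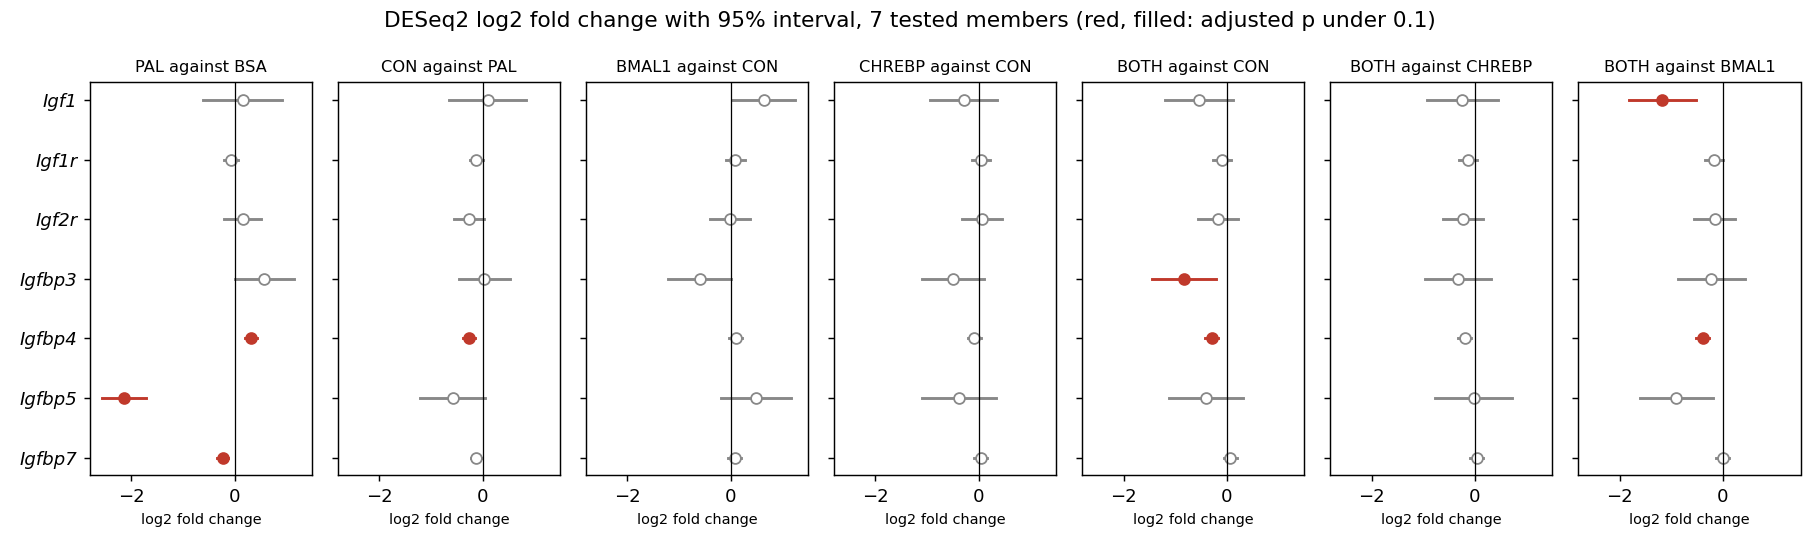
DESeq2 log2 fold change (x axis, 0 marked by the line) of 7 members in 7 comparisons, with 95% intervals as bars and filled red points for an adjusted p under 0.1. Igfbp5 has the largest change, -2.14 in PAL against BSA, and Igfbp4 is red in 4 of the 7 comparisons.

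CON against PAL compared cells with and without transfection, in libraries that also differ by column and row. Igfbp4 fell and was the 1 of 7 members that DESeq2 called, beside 2.51% of all genes. Its normalized counts were 8101, 7215, 7433 and 7873 in CON, all below the lowest PAL library at 8599, at a log2 fold change of -0.26 (SE 0.06, DESeq2 adjusted p = 0.00069). Its mean in CON, 7656 ± 404, was thus near that in BSA, 7377 ± 371, and the ranges of these 2 groups overlapped. Igf1r was also lower in each CON library (943 to 1054) than in any PAL library (1063 to 1135), but the difference of -0.13 did not pass (adjusted p = 0.456). Igfbp7 was at 16112 ± 547 in CON and 17588 ± 637 in PAL (log2 fold change -0.13, adjusted p = 0.143), and it was called without PAL replicate 3 or without CON replicate 1 (adjusted p down to 0.0626). Igfbp5, at 20.9 ± 4.44 in CON, had an interval from -1.21 to 0.05 and was not called. The interferon-induced genes were higher in every CON library than in any PAL library, and their part in the Igfbp4 change was not tested.

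Of the pathway lists, 59 genes were tested in CON against PAL, and 1 rose and 2 fell, beside 2.51% called over all genes. Socs1, an interferon-induced inhibitor of JAK kinases, rose from 28.7 ± 7.05 to 54.3 ± 13.4 normalized counts (log2 fold change 0.92, SE 0.27, DESeq2 adjusted p = 0.0395). Sesn1 and Gadd45a, stress genes induced by FOXO and p53, had log2 fold changes of -0.66 and -0.23.

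Next, the esiRNA groups were compared with CON, to ask what esiRNA to each factor changed. These comparisons share the CON libraries, so their values stand side by side and are not independent. With Bmal1 esiRNA, DESeq2 called 0 of 8 members, beside 0.490% of 13883 genes, 1 member had an unadjusted p under 0.05, and edgeR called 0. With Chrebp esiRNA, DESeq2 called 0 of 8, beside 3.42% of all genes, 0 had an unadjusted p under 0.05, and edgeR called 0. With both esiRNAs, DESeq2 called 2 of 8, Igfbp3 and Igfbp4, both lower, beside 9.73% of all genes. The median log2 fold change of the 8 members was 0.09 in BMAL1, -0.19 in CHREBP and -0.35 in BOTH, where that of all genes was between -0.01 and 0.00. The 8 include Igf1, Igfbp3, Igfbp5 and Igfbp6, measured from few reads, and the medians were not tested.

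The ligand gene Igf1 was at 24.2, 10.8, 23.0 and 31.3 normalized counts in CON and at 38.0, 36.1, 29.7 and 32.0 in BMAL1. The BMAL1 libraries included the highest values of all 24 libraries, but CON replicate 4 was above BMAL1 replicate 3. The log2 fold change was 0.63 (95% interval 0.03 to 1.24, unadjusted p = 0.0402), and DESeq2 gave no adjusted p because the mean count was below its filter. Over the fits without 1 library the log2 fold change ran from 0.38 to 0.83. In CHREBP Igf1 was at 15.5, 21.5, 17.0 and 16.6, and in BOTH at 16.6, 14.1, 13.9 and 15.4. Both groups lay wholly below BMAL1 and within the range of CON, with intervals of -0.94 to 0.35 and -1.21 to 0.12 against CON. Against BMAL1, Igf1 in BOTH was lower by a log2 fold change of -1.18 (SE of 0.33, DESeq2 adjusted p = 0.00736). Among the pairwise comparisons run, which did not include CHREBP against BMAL1, this was the only call of the ligand gene. The likelihood ratio test over the 4 groups also called it (DESeq2 adjusted p = 0.0249), though not without BMAL1 replicate 1 or without BMAL1 replicate 2. These differences rest on 28 to 35 reads per BMAL1 library and 12 to 16 per BOTH library.

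Igfbp4 was the member that differed most often. Its normalized counts were 8310, 8117, 8010 and 8333 in BMAL1, 6716, 6983, 7558 and 7488 in CHREBP, and 6649, 5560, 6679 and 6209 in BOTH. BOTH was the lowest group, with each of its libraries below all others in the series, and BMAL1 was the tightest, with an SD of 156 around 8192. Against CON, the log2 fold change was -0.29 in BOTH (SE 0.06, DESeq2 adjusted p = 0.000242), a fall of 18.2%. It was 0.10 in BMAL1 (95% interval -0.03 to 0.22) and -0.09 in CHREBP (-0.22 to 0.03), which did not pass. Ordered by mean over all groups, Igfbp4 ran BOTH, CHREBP, BSA, CON, BMAL1 and PAL from low to high. Neighbours overlapped from CHREBP to BMAL1, and BOTH and CHREBP, and BMAL1 and PAL, did not.

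Adding one esiRNA to the other gave further contrasts. In BOTH against CHREBP, which differ by Bmal1 esiRNA, total dose and library row, DESeq2 called 0 of 8 members, beside 0.994% of all genes, and edgeR called 0. The 1 member with an unadjusted p under 0.05 was Igfbp4, whose groups did not overlap (log2 fold change -0.20, SE 0.06, DESeq2 adjusted p = 0.133), and it passed without CHREBP replicate 1 or BOTH replicate 1 (adjusted p down to 0.0561). In BOTH against BMAL1, which differ by Chrebp esiRNA, dose and library column, 2 of 8 were called, beside 10.4% of all genes: Igf1, as given, and Igfbp4 (-0.39, SE 0.06, DESeq2 adjusted p = 9.47e-08). Igf1r (log2 fold change -0.18, DESeq2 adjusted p = 0.249) and Igfbp5 (-0.90, adjusted p = 0.107) were not called. Without BOTH replicate 2 both were, at -0.27 (adjusted p = 0.0206) and -1.28 (adjusted p = 0.023).

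The interaction asks whether Bmal1 esiRNA changed a gene by a different amount with and without Chrebp esiRNA. The same contrast sets the 2 groups at 200 nM (CON and BOTH) against the 2 at 100 nM, so that interaction and total dose cannot be told apart. For Igfbp4 its log2 value was -0.29 (SE 0.09, DESeq2 adjusted p = 0.0691), since the gene was at 8192 against 7656 normalized counts without Chrebp esiRNA and at 6274 against 7186 with it. This was the 1 of 8 members called, beside 1.47% of all genes. It was not called by edgeR (adjusted p = 0.163) nor without CON replicate 2, CON replicate 3, any 1 of the 4 BMAL1 libraries, CHREBP replicate 3, CHREBP replicate 4 or BOTH replicate 2, with DESeq2 adjusted p between 0.102 and 0.229. For Igf1 the interaction value was -0.88 with a 95% interval from -1.80 to 0.03, and it had no adjusted p. The likelihood ratio test over the 4 esiRNA groups called 2 of 8 members, Igf1 and Igfbp4 (DESeq2 adjusted p = 8.55e-07), beside 9.92% of all genes.

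Igfbp3 had its lowest mean in BOTH, 25.6 ± 10.8, and its highest in CON, 45.1 ± 11.0 (SD, n = 4). Its normalized counts were 31.4, 58.0, 43.6 and 47.5 in CON, 24.4, 26.6, 36.4 and 31.1 in BMAL1, 23.3, 26.7, 51.9 and 25.5 in CHREBP, and 13.3, 23.0, 39.3 and 26.9 in BOTH. In each of the 3 groups at least 1 library was above the lowest CON library, so none was clear of CON. Only BOTH was called (log2 fold change -0.83, SE 0.32, DESeq2 adjusted p = 0.0901), and the call was lost with edgeR and without any 1 of CON replicates 2, 3 or 4 or BOTH replicates 1 or 2, with adjusted p from 0.115 to 0.302. In BMAL1 the log2 difference was -0.60 (95% interval -1.22 to 0.01), with no adjusted p. In CHREBP it was -0.50, and -0.85 without CHREBP replicate 3 (adjusted p = 0.183).

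The other members showed no call against CON. Igfbp5 was at 29.2 ± 5.93 in BMAL1, 15.7 ± 5.82 in CHREBP and 15.4 ± 7.37 in BOTH, around 20.9 ± 4.44 in CON. Of these 16 libraries the highest was in BMAL1 and the lowest, at 8.09, in BOTH, where replicate 2 stood at 25.6. Against CON the 95% intervals were -0.18 to 1.17, -1.09 to 0.33 and -1.12 to 0.31, so that a log2 change of 1 in one direction was within each of them. Igfbp7 was at 16999 ± 535, 16520 ± 849 and 16936 ± 1644, and the intervals against CON lay between -0.09 and 0.20. Igf1r was at 1076 ± 70.3, 1047 ± 77.9 and 952 ± 132, and Igf2r at 109.1 ± 22.0, 114.8 ± 24.1 and 97.7 ± 26.0. The lowest Igf2r library, at 59.7, was BOTH replicate 1. Igfbp6, tested in these 16 libraries at a mean of 1.61 normalized counts, had a 95% interval of -1.22 to 3.03 in BMAL1 against CON, and no difference was detectable at this depth.

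The interferon-induced genes were highest in CHREBP and BOTH, and they spread widely in CON, from 4.36 in replicate 1 to 7.19 in replicate 3. Within CON, replicate 1 had the highest Igfbp4 (8101), Igf1r (1054), Igf2r (124), Igfbp6 (2.69) and Igfbp7 (16902). It had the lowest Igfbp3 (31.4), and replicate 4 had the highest Igf1 and Igfbp5. The score was at least 8.93 in CHREBP and at least 9.81 in BOTH. Summed hepatocyte markers were at 1802 to 1967 CPM (CON), 1894 to 2107 CPM (BMAL1), 1578 to 1736 CPM (CHREBP) and 1502 to 1781 CPM (BOTH). Summed cholangiocyte markers were at 1811 to 1917 CPM in CON and 1678 to 1804 CPM in BOTH, and the share of reads not aligned was 26.7% to 27.5% in CON and 24.9% to 26.3% in BOTH, without overlap in either. The part of these measures in the Igf1, Igfbp3 and Igfbp4 values was not tested.

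**Figure D3:**
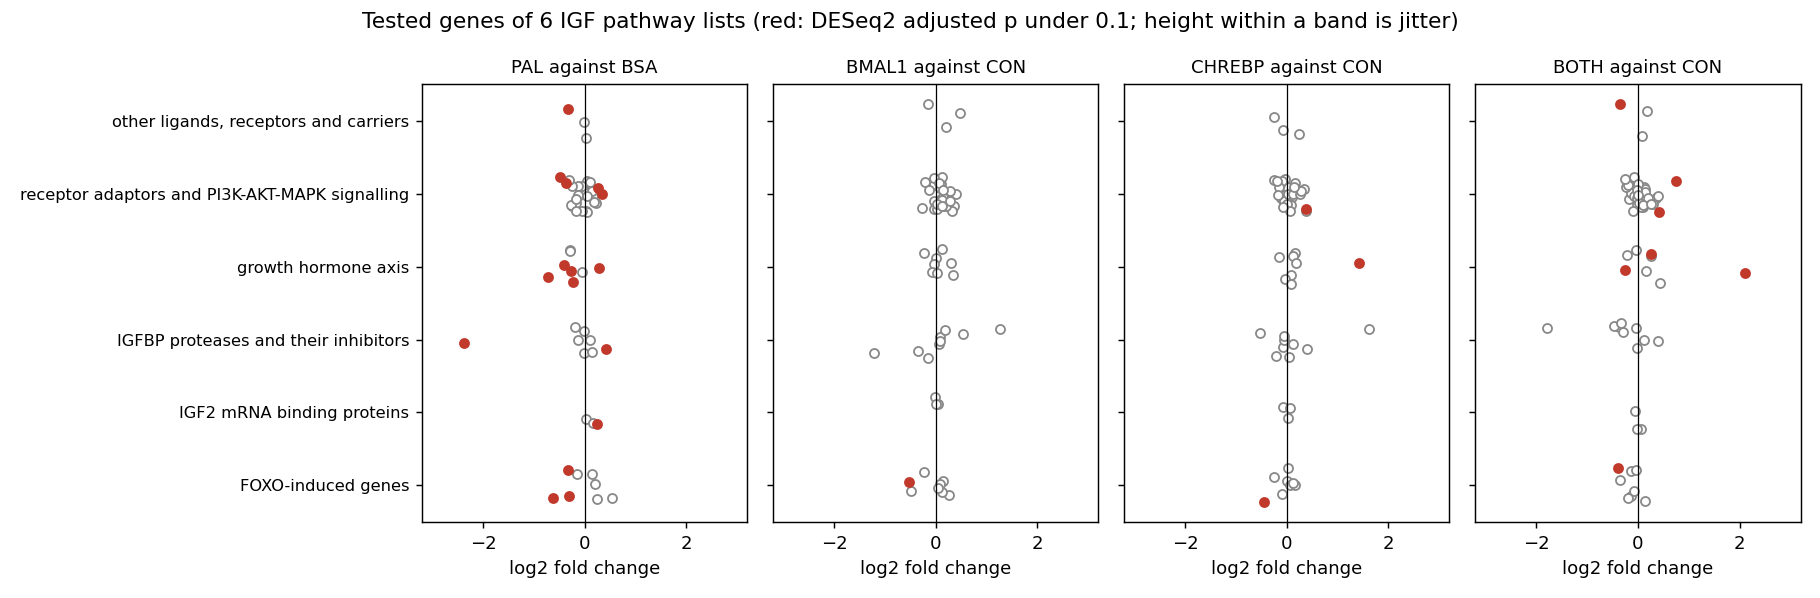
DESeq2 log2 fold change (x axis) of the tested genes of 6 pathway lists (bands) in 4 comparisons, with red points for an adjusted p under 0.1 and jitter within a band. In PAL against BSA 16 of 60 genes are red, beside 14.3% called over all genes, and the far right red points in CHREBP (1.43) and BOTH (2.11) are Socs1. The far left point in PAL against BSA is the protease gene Adamts4 (-2.36, SE 0.93, adjusted p = 0.0803), named after its values were seen because it stands apart here.

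In the pathway lists, 61 genes were tested in the esiRNA groups. Against CON, 0 rose and 1 fell in BMAL1, 2 rose and 1 fell in CHREBP, and 4 rose and 3 fell in BOTH, beside 0.490%, 3.42% and 9.73% called over all genes. The shares called in CHREBP and BOTH were thus near those over all genes. Socs1 rose most, from 54.3 ± 13.4 normalized counts in CON to 147 ± 41.7 in CHREBP and 235 ± 88.7 in BOTH, with log2 fold changes of 1.43 (SE 0.25, DESeq2 adjusted p = 1.35e-06) and 2.11 (SE 0.25, DESeq2 adjusted p = 1.89e-15). Map2k1, the gene of the kinase MEK1, rose by 0.38 in CHREBP and by 0.75 in BOTH on the log2 scale. Klf15 was called lower in all 3 groups, with log2 fold changes of -0.53, -0.45 and -0.39 (DESeq2 adjusted p = 0.0881, 0.0755 and 0.098). These 3 calls share the CON libraries, where Klf15 was at 136 ± 17.1 normalized counts. It was at 103 ± 5.60 in PAL, 92.7 ± 16.5 in BMAL1, 98.7 ± 6.50 in CHREBP and 104 ± 8.59 in BOTH. In BOTH, Akt2, a kinase downstream of the insulin and IGF receptors, rose by 0.42, Stat5b, the growth hormone signal transducer, by 0.26, and Lrp1, an endocytic receptor, fell by 0.35. In BOTH against BMAL1, 2 pathway genes rose and 6 fell, beside 10.4% called over all genes. Those that rose were Socs1 (log2 fold change 2.34, DESeq2 adjusted p = 2.08e-18) and Map2k1 (0.77, DESeq2 adjusted p = 2.29e-10), and those that fell included the protease gene Htra3 (a fold of 0.499), Lrp1 (log2 fold change -0.55), Socs3 (-0.51) and Grb14 (-0.50). Map2k1 was the 1 gene of 61 called in BOTH against CHREBP (0.36), beside 0.994% called over all genes. Socs3 was the 1 of 61 called in the interaction (-0.48), beside 1.47%. Among other receptor and signalling genes, group means ran for Insr from 343 to 402, for Irs1 from 109 to 141, for Irs2 from 361 to 443 and for Foxo1 from 169 to 208 over the 6 groups.

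For the 5 members called in some comparison, the genes with the most similar pattern were found by Pearson's r of log2(normalized count + 1) over the 24 libraries, among 9379 genes. Igfbp5 was most like Dsp (r = 0.90), Akr1b7 (0.89) and Cxcl5 (0.89). After subtraction of group means, r was 0.60 for Dsp but -0.42 for Akr1b7 and -0.16 for Cxcl5. Igfbp7 was most like Sod2 (0.91), Cst3 (0.90) and Mettl26 (0.88), with 0.63, 0.67 and 0.72 within groups. For Igfbp4 the genes were Nt5dc2 (0.83), Wnt4 (0.82) and Ssr3 (0.82), with 0.71, 0.60 and 0.35 within groups. For Igfbp3 they were Lsm5 (0.78), Efemp1 (0.75) and Lmo7 (0.73), and for Igf1 Pxylp1 (0.73), Chek2 (0.71) and Tcf7l2 (0.68). The libraries share groups and depths, and these values are a description.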

How the data were processed

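RNA of 24 AML-12 libraries was sequenced from the 3′ end (BRB-seq). After demultiplexing, the authors used STAR for alignment to mm10 and HTSeq for counting (featureCounts is also named), and deposited raw counts per gene and library, neither normalized nor pooled. Versions, annotation release, strand and molecular identifier handling are not given in the sources used here. The 10 members, gene lists and tests were chosen with earlier results of these data known.

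Libraries were grouped by their labels. DESeq2 1.42.0 (R 4.3.3) was fitted to genes with at least 25 counts in the fitted libraries: 8 libraries each for PAL against BSA and CON against PAL, and 16 for the esiRNA groups. The Wald test and, over the 4 esiRNA groups, the likelihood ratio test were used at a Benjamini-Hochberg adjusted p under 0.1 over all genes tested. Printed normalized counts use size factors of all 24 libraries. Intervals of 95% are Wald intervals, and limits from 3 counts cover counting error only (0.267 to 0.556 CPM per library). Summary lines that name no gene were left out of totals and tests, with 24.9% to 28.0% of reads not aligned and 5.11% to 6.47% in no feature. The 36 replicate pairs differed by more than sampling noise (chi-square per degree of freedom 2.70 to 23.1). Alternatives were edgeR 4.0.16 with TMM, no count filter, TMM factors in DESeq2, other library sets, the replicate number as a block, and leaving out each library. Named pathway genes were, per comparison, up to 6 called genes with the largest change among those with a mean of at least 20, and the similar genes were the 3 with the highest r among those with a mean of at least 50. One gene that this rule named is not reported here. Procedures were tested on simulated data.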

Additional observations from a re-analysis of the deposited data

Results flagged for a closer look

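Of 43 sets of 4 libraries examined, with 1 gene in 1 group each, 2 held a library far from the other 3 (Dixon's ratio above 0.829), where chance gives about 1 in 20. Igf1 in BSA replicate 3 was at 27.05 normalized counts, above 14.5 to 16.3 in the other BSA libraries. Igfbp3 in CHREBP replicate 3 was at 51.9, above 23.3 to 26.7 in the other CHREBP libraries. Without that library, Igfbp3 in CHREBP against CON had a log2 fold change of -0.85 (DESeq2 adjusted p = 0.183) in place of -0.50.

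For Igfbp4, the contrast of BOTH and CON with BMAL1 and CHREBP was -0.29 on the log2 scale (SE 0.09, DESeq2 adjusted p = 0.0691). An interaction of the esiRNAs and their total dose, 200 nM in BOTH and CON and 100 nM in the others, cannot be told apart in it. The value was -0.29 with edgeR too, where it did not pass (adjusted p = 0.163), and the call was lost in 9 of the 16 fits without 1 library (adjusted p up to 0.229).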

How the results depend on the processing

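Of 1183 log2 values of single members under the alternatives, 1123 kept their direction and side of the threshold, 18 lost the call, 9 gained one, 6 moved by more than their standard error without a call, and 27 changed sign. The 27 were all values without a call, in fits without 1 library. The lowest and highest log2 values over those fits were -0.011 and 0.42 for Igf1 in PAL against BSA, and in CON against PAL -0.11 and 0.34 for Igf1 and -0.13 and 0.17 for Igfbp3. Against CON they were -0.12 and 0.11 for Igf2r in BMAL1, and in CHREBP -0.0002 and 0.088 for Igf1r and -0.047 and 0.18 for Igf2r. In BOTH against CHREBP they were -0.60 and 0.017 for Igfbp3, -0.40 and 0.26 for Igfbp5, -0.41 and 0.50 for Igfbp6 and -0.010 and 0.099 for Igfbp7. In BOTH against BMAL1 they were -0.28 and 0.0094 for Igf2r and -0.054 and 0.055 for Igfbp7, and for the interaction of Igfbp7 -0.087 and 0.022. The number of members called was 3 in PAL against BSA, 0 in BMAL1 against CON and 0 in CHREBP against CON under all alternatives. Without the count filter it was 2 in CON against PAL (Igfbp7 added), 1 in BOTH against CON (Igfbp3 lost) and 1 in BOTH against CHREBP (Igfbp4 added, DESeq2 adjusted p = 0.0802). It was 1 in BOTH against CON with edgeR and with only the 2 groups compared, and 0 for the interaction with edgeR. Leaving out each library in turn gave 1 to 2 members in CON against PAL, 1 to 2 in BOTH against CON, 0 to 1 in BOTH against CHREBP, 2 to 4 in BOTH against BMAL1, 0 to 1 for the interaction and 1 to 4 for the likelihood ratio test. Fitting all 24 libraries added Igfbp5 in BOTH against BMAL1 (log2 fold change -0.89, adjusted p = 0.0411). The causes were not tested.

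Replicate numbers did not pair the libraries: deviations of libraries with the same number had a mean correlation of 0.01 over 24 pairs of the esiRNA groups, 1 pair was over 0.1, and 9 of 24 libraries were closest to their own number. With the replicate number as a block, member calls stayed at 3, 1, 0, 0, 2, 0, 2, 1 and 2 in the 9 tests, and calls over all genes went from 1828 to 1188 in PAL against BSA, from 325 to 186 in CON against PAL and from 68 to 22 in BMAL1 against CON. Calls over all genes were also 14 with edgeR and 144 with only the 2 groups in BMAL1 against CON, 53 and 80 in place of 138 in BOTH against CHREBP, and 122 with edgeR in place of 204 for the interaction. Leaving out 1 library gave 16 to 107 genes in BMAL1 against CON, 56 to 222 in BOTH against CHREBP, as few as 180 in CON against PAL and as few as 104 for the interaction. Depth limits Igf1, Igfbp3, Igfbp5 and Igfbp6, whose intervals are wide.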
